A study of Cerrena unicolor with 12 samples.

Results

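The sugar by day interaction in *Cerrena unicolor* asked which genes changed with culture age differently in fructose than in glucose. It was computed for each gene as the log2 difference between 6-day and 10-day cultures in fructose, minus the same difference in glucose, where Cd-6 and Cd-10 stand for the cultivation days. A positive interaction therefore means a more positive Cd-6 minus Cd-10 difference in fructose than in glucose. No gene entered the test by its interaction, and all 12 libraries of the 12 in the series entered. Of the 11281 listed genes, 10396 passed the filter of a normalized read count of at least 10 in at least 3 libraries. The genes named below, apart from the glutathione genes, were picked by their interaction. Their values and p-values are not independent of that choice.

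The groups were fructose Cd-6, fructose Cd-10, glucose Cd-6 and glucose Cd-10, with 3 replicate cultures each. All were hyphae of the wild-type (WT) strain 87613, shaken at 200 rpm and 30°C in potato dextrose medium in which the carbon source was either fructose or glucose. The strain is a single isolate, so the replicates speak only for it. The labels tie no Cd-6 culture to a Cd-10 culture.

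*C. unicolor* is a white rot fungus, known for secreting laccase, a copper-containing oxidase that acts on lignin and other phenols. Fructose and glucose are both hexoses that enter glycolysis after phosphorylation, and many fungi adjust transport, storage and secretion as the sugar in the medium is used up. Glutathione is a tripeptide thiol that buffers the redox state of the cell and is joined to other molecules by glutathione S-transferases.

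The libraries held 10279983 to 12126094 reads assigned to genes, recovered from the normalized values. Replicates of a group correlated across genes with r of 0.952 to 0.987. The first principal component, with 42.9% of the variance, separated Cd-6 from Cd-10 libraries in both sugars. The second, with 18.1%, ran from 23.69 to 32.85 in the fructose Cd-6 libraries and from -62.61 to -13.19 in the glucose Cd-6 libraries. On it the sugars lay apart at Cd-6 and overlapped at Cd-10. The third component ran from -41.95 to -13.18 in the fructose Cd-10 libraries and from 20.68 to 32.18 in the glucose Cd-10 libraries. On the third the sugars thus lay apart at Cd-10, and they overlapped at Cd-6. Glucose Cd-6 replicate 2 was the farthest out on the second component. The median within-group SD (log2) was 0.195 in fructose Cd-6, 0.259 in fructose Cd-10, 0.283 in glucose Cd-6 and 0.235 in glucose Cd-10. The share of reads in the top 20 genes was 12.4% to 13.6% of the reads in fructose Cd-6, 8.41% to 9.98% in fructose Cd-10, 7.97% to 10.6% in glucose Cd-6 and 8.55% to 9.28% in glucose Cd-10. Whether this had a part in the results was not tested. The deposited files pair no gene ID with a product, and the study gives products beside gene IDs only for its glutathione genes. The hyphal origin of the RNA could therefore not be checked against marker genes. In RNA from whole mycelium, fewer hyphae of a kind and less RNA per hypha cannot be told apart.

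For most genes no difference between the sugars was called. The median absolute interaction over all 10396 genes was 0.42 on the log2 scale, against a median standard error of 0.33, and the changes in the sugars correlated across genes with r = 0.579, which is a description since genes are not independent. In fructose, 1356 genes (13.0%) were higher at Cd-6 and 1333 (12.8%) were lower. In glucose, 3223 genes (31.0%) changed in either direction. Both sugars called 1390 genes, which are 51.7% of the fructose calls and 43.1% of the glucose calls, and 1333 of them had the same sign.

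The interaction itself was called for 485 genes, 4.67% of those tested, at an adjusted p below 0.05 in limma. Of these, 295 (2.84%) were positive and 190 (1.83%) were negative, so that 60.8% of the called genes were positive. The sizes ran from 0.72 to 6.74 in absolute log2, with a median of 1.66. An absolute interaction of at least 1 was found for 432 of them, of at least 2 for 161 and of at least 3 for 44, and the last were 35 positive and 9 negative genes. The smallest adjusted p (limma) was 7.3e-04. An unadjusted p below 0.05 was found for 2410 genes (23.2%).

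The split by sign rests on the scaling. With libraries scaled by their total alone, the median interaction of all genes was -0.30 in place of -0.00, and 216 positive and 527 negative genes were called (29.1% positive). TMM factors gave 286 positive and 194 negative genes, and the authors' own scaling gave 315 and 183. Relative to the median gene, then, more genes were called positive than negative, and relative to the library total more were called negative.

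Being called in only one sugar did not by itself mean a difference between sugars. Of the 1299 genes called in fructose and not in glucose, 177 were called in the interaction, and of the 1833 called in glucose and not in fructose, 203 were. For the remaining genes of either kind the difference was not shown.

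The 485 genes fell into classes by whether their change passed the test in each sugar, at an adjusted p below 0.05. Not passing in a sugar does not show a lack of change there. These classes come from the libraries of the interaction, so they describe the called genes and are not tested. The largest class passed in glucose alone, with 203 genes (41.9%). Its 112 positive members had a median change of 0.21 in fructose and -1.39 in glucose, and its 91 negative members had -0.16 in fructose and 1.11 in glucose. The genes that passed in fructose alone numbered 177 (36.5%). Their 112 positive members had a median change of 1.84 in fructose and -0.16 in glucose, and their 65 negative members had -1.51 in fructose and 0.24 in glucose.

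Opposite changes were fewer. In 57 genes (11.8%) the Cd-6 minus Cd-10 difference passed the test in both sugars with opposite signs. In 41 of them the transcript was higher at Cd-6 in fructose and lower at Cd-6 in glucose, with median changes of 1.11 in fructose and -1.06 in glucose. The other 16 ran the other way, with medians of -0.68 in fructose and 0.73 in glucose. A further 44 genes (9.07%) changed with the same sign in both sugars and by different amounts, the change being larger in fructose for 32 and larger in glucose for 12. The last 4 genes (0.825%) passed in neither sugar.

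**Figure D1:**
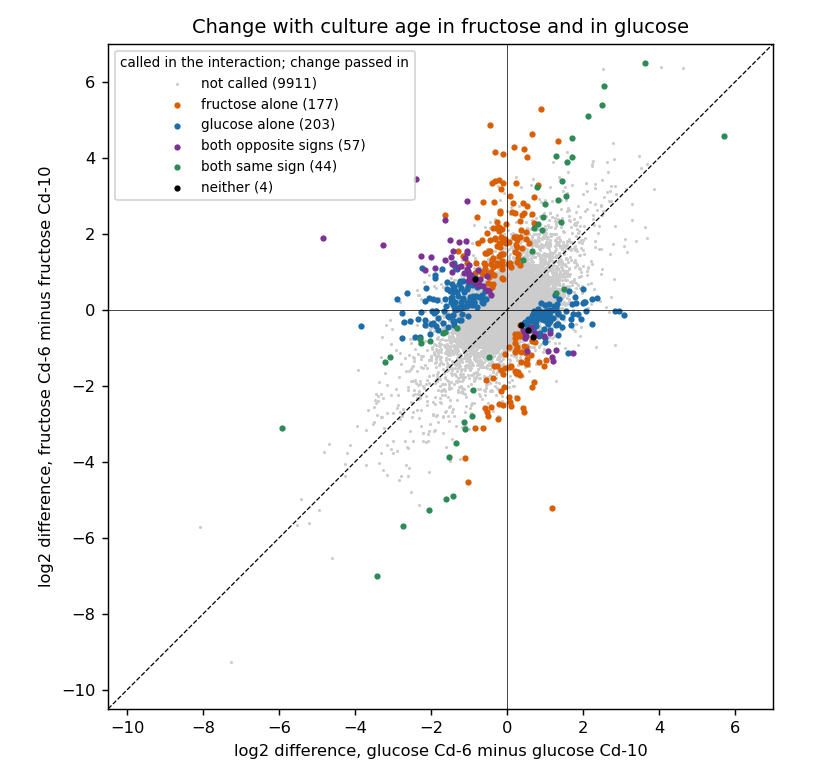
Each point is 1 of the 10396 genes, with the Cd-6 minus Cd-10 log2 difference in fructose on the vertical axis and in glucose on the horizontal axis; the dashed line marks equal change. Grey points were not called in the interaction, and the 485 coloured points lie off the line, 203 of them along the horizontal axis (change passed in glucose alone), 177 along the vertical axis (fructose alone) and 57 in the quadrants of opposite sign.

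For each gene, the group whose mean log2 value lay farthest from the mean of the other 3 groups was noted, as a description. Fructose Cd-6 was that group for 179 genes (36.9% of the called genes, against 24.9% of all genes tested), and fructose Cd-10 for 56 (11.5%, against 22.3%). Glucose Cd-6 was farthest for 142 genes (29.3%, against 28.9%) and glucose Cd-10 for 108 (22.3%, against 23.9%). Either Cd-6 group was farthest for 66.2% of the called genes, against 53.8% of the genes tested. Among positive genes, fructose Cd-6 stood high for 115, glucose Cd-6 stood low for 92, glucose Cd-10 stood high for 55 and fructose Cd-10 stood low for 33. Among negative genes, fructose Cd-6 stood low for 64, glucose Cd-10 low for 53, glucose Cd-6 high for 50 and fructose Cd-10 high for 23.

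The called genes had a higher median level than the genes tested. It was 49.5 CPM (reads scaled to a fixed library total, quartiles 18.0 and 133), against 29.6 CPM (quartiles 7.55 and 86.5) over all genes tested. The table holds A-series IDs and a second series of IDs. The second series was called in 41 of 1564 cases (2.62%), 34 positive and 7 negative, against 444 of 8832 (5.03%) for the A series. Its median level was 3.59 CPM, against 38.0 CPM for the A series, and the part of level in these shares was not tested.

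Outside the study's gene lists, the most extreme genes by the naming rule had no product in the sources used here. A01313 had the most positive interaction. Its normalized read counts were 5222, 4822 and 2682 in fructose Cd-6 and 925, 790 and 1787 in fructose Cd-10. They were 353, 186 and 132 in glucose Cd-6 and 11505, 9379 and 1933 in glucose Cd-10. The days did not overlap in either sugar, and the order of the days was reversed between the sugars. The difference was 1.90 ± 0.58 in fructose and -4.85 ± 0.58 in glucose (log2 ± SE), and the interaction was 6.74 ± 0.83 (limma, adjusted p = 0.0025).

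The other positive gene, which carries an ID of the second series, was a low-level transcript. It had 57.9, 32.2 and 26.3 normalized read counts in fructose Cd-6 and 9.32, 1.04 and 0.972 in fructose Cd-10. In glucose Cd-6 it had 0.998, 1.62 and 6.72, and in glucose Cd-10 it had 32.3, 33.4 and 4.18. The fructose days did not overlap, and the glucose days did, through glucose Cd-6 replicate 3 and glucose Cd-10 replicate 3. The interaction was 5.84 ± 1.19 (limma, adjusted p = 0.022), on a scale of log2(value + 1) that compresses such low values, and between 3.99 and 7.89 over the alternatives.

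A01090 had the most negative interaction. It had 3.28, 21.1 and 11.1 normalized read counts in fructose Cd-6 and 335, 733 and 231 in fructose Cd-10, against 9.98, 55.1 and 76.4 in glucose Cd-6 and 10.5, 16.1 and 19.9 in glucose Cd-10. Fructose Cd-10 was thus the high group, above each of the other 9 cultures, and the glucose days overlapped. The difference was -5.20 ± 0.72 in fructose and 1.18 ± 0.72 in glucose, with an interaction of -6.38 ± 1.02 (limma, adjusted p = 0.0077).

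In A06328, fructose Cd-6 was the low group. It had 144, 361 and 441 normalized read counts in fructose Cd-6 and 8147, 7578 and 4659 in fructose Cd-10, against 2898, 12272 and 8039 in glucose Cd-6 and 12855, 13697 and 13514 in glucose Cd-10. The days did not overlap in either sugar, although the glucose difference of -1.02 ± 0.48 did not pass the test (limma, adjusted p = 0.12). The fructose difference was -4.53 ± 0.48, and the interaction was -3.51 ± 0.68 (limma, adjusted p = 0.017).

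**Figure D2:**
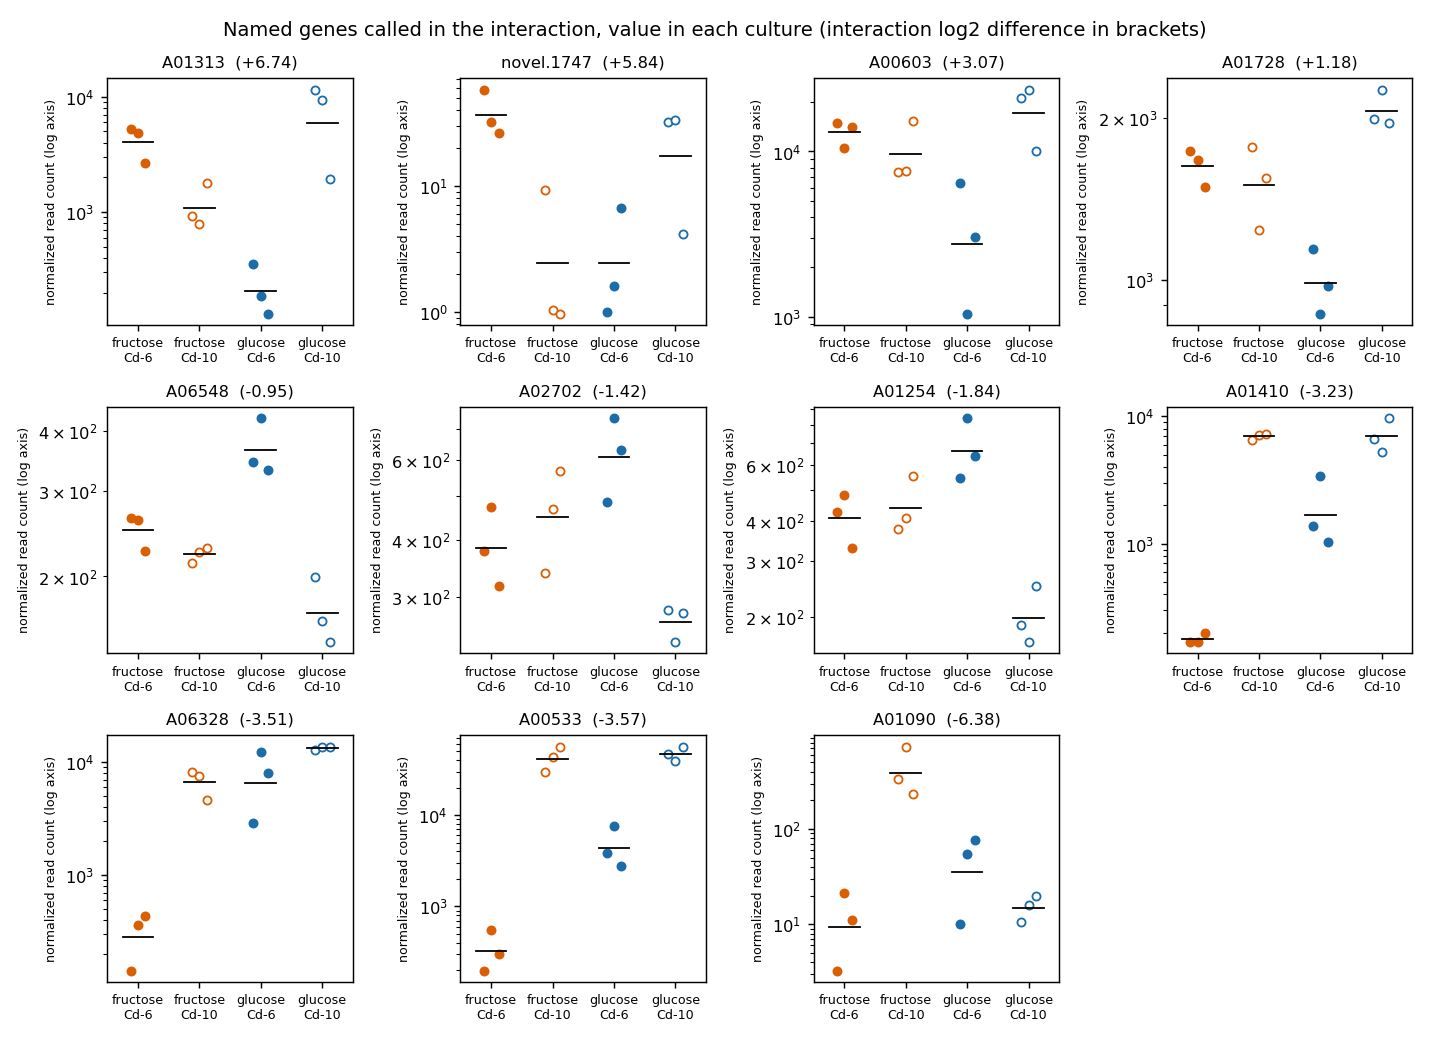
Normalized read counts (log axis) of the 11 named genes called in the interaction, with 1 point per culture, black bars for the group means taken on the log2 scale, filled points for Cd-6 and open points for Cd-10. Fructose groups stand left of glucose groups; A01313 is high in fructose Cd-6 and glucose Cd-10, while A00533, A01410 and A06328 are lowest in fructose Cd-6.

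The study's 10 pathway lists and its table of 11 glutathione genes hold 93 distinct genes, and all 93 were tested. The study chose them for their change between Cd-6 and Cd-10 in the glucose cultures analysed here, so their glucose change, and the interaction that contains it, are not independent of that choice. Their change in fructose was not used in it, but the changes in the sugars were correlated across genes (r = 0.579). Of all genes called in glucose, 43.1% were also called in fructose. The backgrounds of 13.0% and 12.8% given below are shares of all genes. They are therefore low for genes chosen in glucose. Of the 93 genes, 7 (7.53%) were called in the interaction, 2 positive and 5 negative, beside the 4.67% of all genes, and 478 of the 485 called genes lay outside the lists. The lists overlap, and the members have no product in the sources used here unless a product is named below.

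The list members with the most negative called interactions belonged to carbon metabolism and to starch and sucrose metabolism. A00533 is listed under carbon metabolism, under glyoxylate and dicarboxylate metabolism (the use of acids with few carbons as a carbon source) and under secondary metabolites. It had 199, 556 and 303 normalized read counts in fructose Cd-6 and 29839, 42792 and 55773 in fructose Cd-10, against 3841, 7670 and 2768 in glucose Cd-6 and 46949, 38701 and 56286 in glucose Cd-10. It was lower at Cd-6 in both sugars with no overlap of the days, the sugars overlapped at Cd-10, and at Cd-6 the fructose cultures lay below the glucose cultures. It was 128-fold lower at Cd-6 in fructose and 10.8-fold lower in glucose, with an interaction of -3.57 ± 0.57 (limma, adjusted p = 0.0077).

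A01410, of the starch and sucrose list, showed the same arrangement. Its normalized read counts were 169, 169 and 200 in fructose Cd-6 and 6542, 7114 and 7311 in fructose Cd-10. In glucose it had 1382, 3396.9 and 1027 at Cd-6 and 6648, 5282 and 9686 at Cd-10. It was 38.8-fold lower at Cd-6 in fructose and 4.13-fold lower in glucose, and the interaction was -3.23 ± 0.49 (limma, adjusted p = 0.0066). In both genes the fall at Cd-6 relative to Cd-10 was larger in fructose than in glucose.

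A00603, listed under secondary metabolites, ran the other way. It had 14894, 10543 and 14124 normalized read counts in fructose Cd-6 and 7564, 7664 and 15363 in fructose Cd-10, which overlapped. It had 6470, 1047 and 3052 in glucose Cd-6, each below its 20908, 23653 and 10001 in glucose Cd-10. The interaction was 3.07 ± 0.76 (limma, adjusted p = 0.040). The call did not hold in edgeR on 12 libraries (adjusted p = 0.052), and it held in only 4 of the 12 fits that left out 1 library.

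Over the metabolic lists, the median changes lay on the same side of 0 in both sugars. Their interaction counts stand beside 4.67% of all genes called in limma and 23.2% with an unadjusted p below 0.05. Quality weights called 2443 of all 10396 genes. In the list of the citrate cycle, which oxidizes acetyl units in the mitochondrion, 8 of 9 members were lower at Cd-6 in fructose (background 12.8%). In the interaction limma called none, with 2 at an unadjusted p below 0.05, quality weights called 1, and edgeR and DESeq2 called 0 on 12 and on 9 libraries. Its median change was -1.31 in fructose and -1.65 in glucose, with a median interaction of 0.45. Of the 29 carbon metabolism genes, 21 were lower and 6 higher at Cd-6 in fructose, with median changes of -1.39 in fructose and -1.65 in glucose. Of the 13 pyruvate metabolism genes, 10 were lower and 2 higher, with medians of -2.66 in fructose and -2.86 in glucose. In its interaction limma called none (5 at an unadjusted p below 0.05), edgeR 0 on 12 and on 9 libraries, DESeq2 1 on each, quality weights 4, and limma 1 without fructose Cd-10 replicate 3.

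The glyoxylate and dicarboxylate list had 7 of 10 members lower at Cd-6 in fructose, with medians of -1.29 in fructose and -1.55 in glucose. The starch and sucrose list had 9 of 14 lower and 2 higher, with medians of -0.91 in fructose and -1.33 in glucose. The count of lower members in the starch and sucrose list ran between 5 and 10 in the fits that left out 1 library, with 5 without fructose Cd-10 replicate 3 and 6 without fructose Cd-6 replicate 2. The amino acid list had 7 of 12 members higher (background 13.0%) and 4 lower, with medians of 1.42 in fructose and 1.31 in glucose. In its interaction limma called none (4 at an unadjusted p below 0.05), edgeR 0 on 12 and on 9 libraries, DESeq2 1 on 12 and 2 on 9, quality weights 3, and limma 1 without glucose Cd-6 replicate 1. The secondary metabolite list, which holds 50 genes and shares many of them with these lists, had 12 higher and 27 lower (background 13.0% and 12.8%). Its medians were -0.72 in fructose and -1.29 in glucose. It had 1 positive and 1 negative interaction call, near the background of 2.84% positive and 1.83% negative. The medians of the fructose change kept their sign under library-size, TMM and deposited scaling for these 7 lists. The median interaction was positive for each of them, and with libraries scaled by their total alone it changed sign for carbon metabolism (-0.02), amino acids (-0.01) and glyoxylate (-0.11).

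The members at the ends of these lists that were not called had wide intervals. A07715, the most positive of the citrate, pyruvate and carbon lists, had 173, 401 and 180 normalized read counts in fructose Cd-6 and 742, 1641 and 1056 in fructose Cd-10, against 110, 78.6 and 139 in glucose Cd-6 and 1196, 1106 and 1212 in glucose Cd-10. Its interaction was 1.23 (95% interval 0.20 to 2.26; limma, adjusted p = 0.15). A00422, the most negative of the pyruvate list, had an interaction of -1.34 (-2.16 to -0.52; limma, adjusted p = 0.061). A07489, the most positive of the starch and sucrose list, had 2.13 (0.49 to 3.78; limma, adjusted p = 0.12), and its glucose Cd-10 cultures were spread over 512, 181 and 1574 normalized read counts.

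These intervals leave room for differences that the adjusted test did not call. For A05257, the most positive of the glyoxylate list, the interaction was 0.91 (0.19 to 1.63; limma, adjusted p = 0.13). In the amino acid list it ran between -1.06 for A08064 (-2.03 to -0.08; limma, adjusted p = 0.18) and 0.80 for A02865 (0.13 to 1.47; limma, adjusted p = 0.15). A03397, the most negative of the citrate list, had -0.21 (-0.87 to 0.45; limma, adjusted p = 0.73), and this sign turned without fructose Cd-10 replicate 3.

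**Figure D3:**
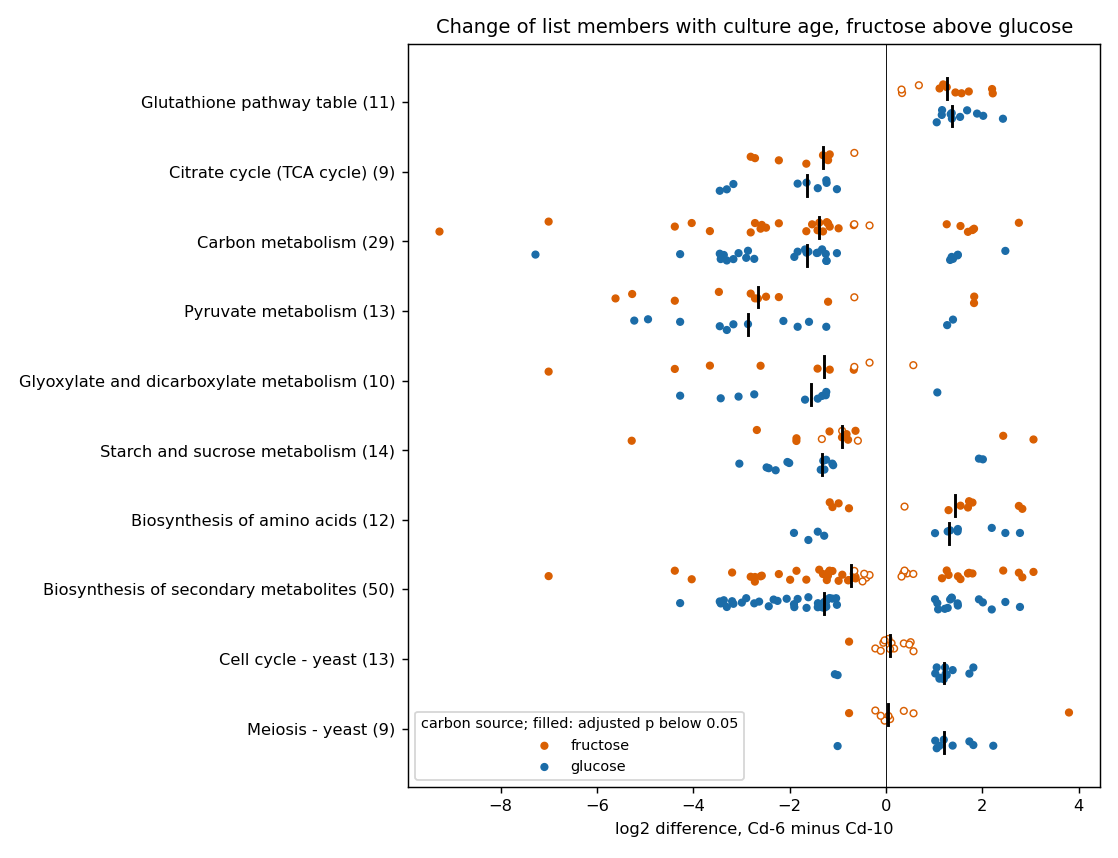
Cd-6 minus Cd-10 log2 difference of each member of 9 of the study's pathway lists and of the glutathione table (number of members in brackets; the list glutathione metabolism holds 10 of the 11 genes of the glutathione table and is left out), fructose above glucose in each row, with filled points at an adjusted p below 0.05 and black bars at the medians. In the metabolic lists the sugars' medians lie on the same side of 0; in the cell cycle and meiosis lists the fructose medians lie at 0.09 and 0.05, and the glucose medians at 1.20.

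The cell cycle and meiosis lists had fructose medians near 0. They are named after the yeast pathways for the order of chromosome copying and division and for the divisions that form spores, and they share 8 genes, 14 being distinct. Of the 13 cell cycle genes, none was higher and 1 was lower at Cd-6 in fructose (background 13.0% higher and 12.8% lower), 12 did not pass, and the median change was 0.09 in fructose and 1.20 in glucose. The interaction lay below 0 for 11 of the 13, with a median of -0.97, and it was called for 3 negative genes and 1 positive gene (background 1.83% negative and 2.84% positive). Of the 9 meiosis genes, 1 was higher and 1 lower in fructose, the median change was 0.05 in fructose and 1.20 in glucose, and 2 negative interactions were called (background 1.83%), both of them shared with the cell cycle list. With libraries scaled by their total alone, the fructose medians of these lists turned to -0.02 and -0.05. The difference between these lists and the metabolic lists was not tested. The study picked these members, like those of the metabolic lists, for their change in glucose, so that a smaller change in fructose is not independent of that choice.

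Among these genes A01254, shared by both lists, had the most negative interaction. It had 428, 483 and 329 normalized read counts in fructose Cd-6 and 377, 408 and 554 in fructose Cd-10, which overlapped. It had 544, 841 and 637 in glucose Cd-6, each above its 189, 167 and 250 in glucose Cd-10. The interaction was -1.84 ± 0.32 (limma, adjusted p = 0.011), and it was called in each of the 12 fits that left out 1 library. The fructose Cd-6 cultures lay below the glucose Cd-6 cultures, and the fructose Cd-10 cultures lay above the glucose Cd-10 cultures.

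A02702, also of both lists, had 379, 472.5 and 317 normalized read counts in fructose Cd-6 and 339, 469 and 567 in fructose Cd-10, against 485, 739 and 630 in glucose Cd-6 and 281, 239 and 277 in glucose Cd-10. Its interaction was -1.42 ± 0.31 (limma, adjusted p = 0.027). A06548, of the cell cycle list, had 264, 262 and 226 in fructose Cd-6 and 213, 225 and 229 in fructose Cd-10, against 344, 426 and 332 in glucose Cd-6 and 200, 161 and 146 in glucose Cd-10. Its interaction was -0.95 ± 0.23 (limma, adjusted p = 0.040). In both genes the fructose days overlapped and the glucose days did not.

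A01728 was the positive gene of the cell cycle list. It had 1737, 1669 and 1487 normalized read counts in fructose Cd-6 and 1770, 1242 and 1544 in fructose Cd-10, against 1142, 867 and 975 in glucose Cd-6 and 1990, 2257 and 1956 in glucose Cd-10. The fructose cultures of both days lay between the glucose groups, and here glucose Cd-10 was the high group. The interaction was 1.18 ± 0.23 (limma, adjusted p = 0.017).

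Apart from A01254, these cell cycle calls did not hold in every fit that left out 1 library. A06548 was called in 1 of the 12 fits that left out 1 library, A02702 in 5 and A01728 in 10. The count of negative cell cycle calls was 6 without glucose Cd-6 replicate 1, 4 without fructose Cd-10 replicate 1, 3 without glucose Cd-10 replicate 3, 2 without fructose Cd-6 replicate 2 or glucose Cd-6 replicate 2, and 1 in each of the other 7 fits. Negative meiosis calls ran between 1 and 4, with 4 again without glucose Cd-6 replicate 1. Over all genes, negative calls ran between 36 without fructose Cd-6 replicate 1 and 398 without glucose Cd-6 replicate 1. Such swings were thus not particular to these lists. The sign of the cell cycle list's median interaction was the same under library-size, TMM and deposited scaling (-1.27, -0.99 and -0.95). On all 12 libraries, limma gave an unadjusted p below 0.05 for 10 of the 13 cell cycle genes and 7 of the 9 meiosis genes. The share of all genes was 23.2%. Of the cell cycle genes, edgeR on these libraries called 5, DESeq2 7 and quality weights 10. Of the meiosis genes these fits called 3, 4 and 6, and of all genes 518, 1044 and 2443. The lists share genes, and these counts too are not independent of the choice in glucose.

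A07141, the most positive member of the meiosis list, was not called. It had 76721, 52660 and 80972 normalized read counts in fructose Cd-6 and 4523, 6392 and 4202 in fructose Cd-10, against 61915, 10789 and 41111 in glucose Cd-6 and 6260, 5990 and 7137 in glucose Cd-10. It was higher at Cd-6 in both sugars, by 13.9-fold in fructose and 4.68-fold in glucose, and its interaction was 1.57 (95% interval 0.09 to 3.05; limma, adjusted p = 0.19). Glucose Cd-6 replicate 2 was the lowest of the Cd-6 cultures.

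The limma fit on all 12 libraries called none of the 11 glutathione genes in the interaction, with 2 at an unadjusted p below 0.05, and edgeR and DESeq2 called 0 on 12 and on 9 libraries. Without glucose Cd-10 replicate 3, limma called 2, A04614 (adjusted p = 0.038) and A00119 (0.042). With quality weights it called 4, namely A00119 (adjusted p = 0.0047), A04614 (0.015), A09881 (0.040) and A01960 (0.046), all with negative interactions. Over all 10396 genes, limma called 4.67% on the 12 libraries, and 2443 genes with quality weights. Without glucose Cd-10 replicate 3 it called 571 of 10352 genes. In fructose 8 of the 11 were higher at Cd-6 and none was lower. Of all genes, 13.0% were higher, and of the genes called in glucose, 43.1% were called in fructose. The median change was 1.26 in fructose and 1.37 in glucose. The Cd-6 cultures lay above the Cd-10 cultures for each of the 11 genes in each sugar. The share of all genes with such a gap was not counted, and the glucose side is not independent of the study's choice. The median interaction was -0.23, it stayed negative under library-size (-0.53), TMM (-0.24) and deposited (-0.21) scaling, and 8 of the 11 were below 0. The lack of a call is no sign that the sugars act alike, as the intervals below show. The pathway list of glutathione metabolism holds 10 of these genes, and 8 of them were higher in fructose.

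The genes of synthesis and of NADPH supply came out near an interaction of 0. Glutathione synthetase (A09094), which joins glycine to the precursor dipeptide, had 405, 557 and 449 normalized read counts in fructose Cd-6 and 195, 239 and 214 in fructose Cd-10, against 595, 545 and 500 in glucose Cd-6 and 263, 160 and 233 in glucose Cd-10. Its interaction was -0.23 (95% interval -0.83 to 0.37; limma, adjusted p = 0.66). A03741, listed as γ-glutamylcysteine, the name of that dipeptide, had 0.03 (-0.64 to 0.70), and this sign turned under several alternatives. Glucose-6-phosphate dehydrogenase, which supplies the NADPH that keeps glutathione reduced, had -0.10 (-0.68 to 0.47). It was 2.40-fold higher at Cd-6 in fructose and 2.57-fold in glucose.

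The glutathione S-transferases, which join glutathione to other molecules, varied more. A04379, the most abundant, had 22630, 19152 and 35264 normalized read counts in fructose Cd-6 and 5556, 8555 and 3301 in fructose Cd-10, against 46602, 19297 and 44040 in glucose Cd-6 and 5352, 6084 and 7808 in glucose Cd-10. Levels between genes are not corrected for length, so this order is of read counts only. Its interaction was -0.23 with a wide interval of -1.44 to 0.98. The others had 0.18 (-0.93 to 1.29) for A04373, -0.12 (-0.75 to 0.52) for A00358, -0.45 (-1.09 to 0.20) for A09881 and -0.69 (-1.47 to 0.09) for A01960.

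The members that did not pass in fructose were A01960, the aminopeptidase A04614 and the trypanothione reductase A00119. Aminopeptidases release amino acids from the end of a peptide, and trypanothione reductase, known from trypanosomes, reduces a glutathione conjugate. A04614 had 505, 568 and 507 normalized read counts in fructose Cd-6 and 459, 369 and 429 in fructose Cd-10, against 595, 654 and 553 in glucose Cd-6 and 223, 290 and 371 in glucose Cd-10. The sugars overlapped at both ages, and the interaction was -0.72 (95% interval -1.27 to -0.17; limma, adjusted p = 0.12). A00119 had -0.84 (-1.65 to -0.03; limma, adjusted p = 0.20). For both, the interval before adjustment over all genes lay below 0.

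The second trypanothione reductase, A07600, had 5871, 4244 and 4833 normalized read counts in fructose Cd-6 and 1035, 1457 and 794 in fructose Cd-10, against 2689, 1397 and 2462 in glucose Cd-6 and 374, 428 and 865 in glucose Cd-10. It was 4.65-fold higher at Cd-6 in fructose and 4.05-fold in glucose, with an interaction of 0.20 (-0.81 to 1.21). Its fructose cultures lay above its glucose cultures at Cd-6, and the sugars overlapped at Cd-10.

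**Figure D4:**
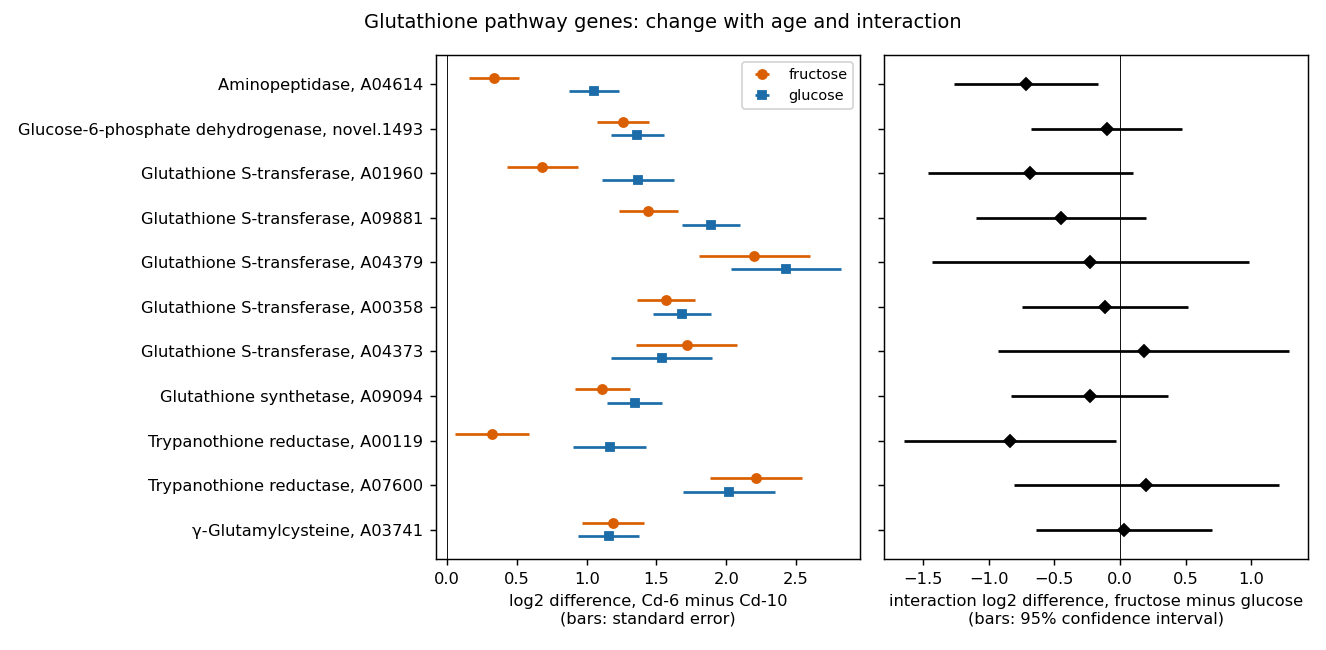
Left, Cd-6 minus Cd-10 log2 difference of the 11 glutathione genes with its standard error, in fructose (circles) and glucose (squares); right, their interaction with its 95% interval before adjustment. All points on the left lie above 0, and 9 of the 11 intervals on the right include 0, those of A04614 and A00119 lying below it.

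The number of called genes depended strongly on single libraries. Without fructose Cd-6 replicates 1, 2 and 3 in turn, 92, 250 and 286 genes were called. Without fructose Cd-10 replicates 1, 2 and 3 it was 338, 176 and 295, without glucose Cd-6 replicates 1, 2 and 3 it was 1073, 312 and 193, and without glucose Cd-10 replicates 1, 2 and 3 it was 130, 132 and 571. The sign of the interaction held in all 12 fits for all 485 genes, and 89 of them (53 positive, 36 negative) were called in all 12. These fits reuse the libraries on which the genes were called, so a kept sign is little evidence. The named genes among these 89 were A01313, A01090, A06328, A00533, A01410 and A01254.

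Other models gave other counts. edgeR on the reads recovered from all 12 libraries called 518 genes, 457 of them shared with the 485, and DESeq2 called 1044, 483 of them shared. Weighting libraries by their quality called 2443 genes, which included all 485. The weights were estimated from the same libraries and were uneven. In fructose Cd-6 they were 3.37, 0.889 and 0.838 for replicates 1, 2 and 3, and in glucose Cd-6 0.49, 0.322 and 3.52. This count is thus no independent check of the 485. On the 9 libraries whose recovered reads passed a stricter test of whole reads, which leave 1 fructose Cd-10 library, edgeR called 0 genes and DESeq2 called 575, 278 of them shared. An unadjusted p below 0.05 was reached there by 1959 genes in edgeR.

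**Figure D5:**
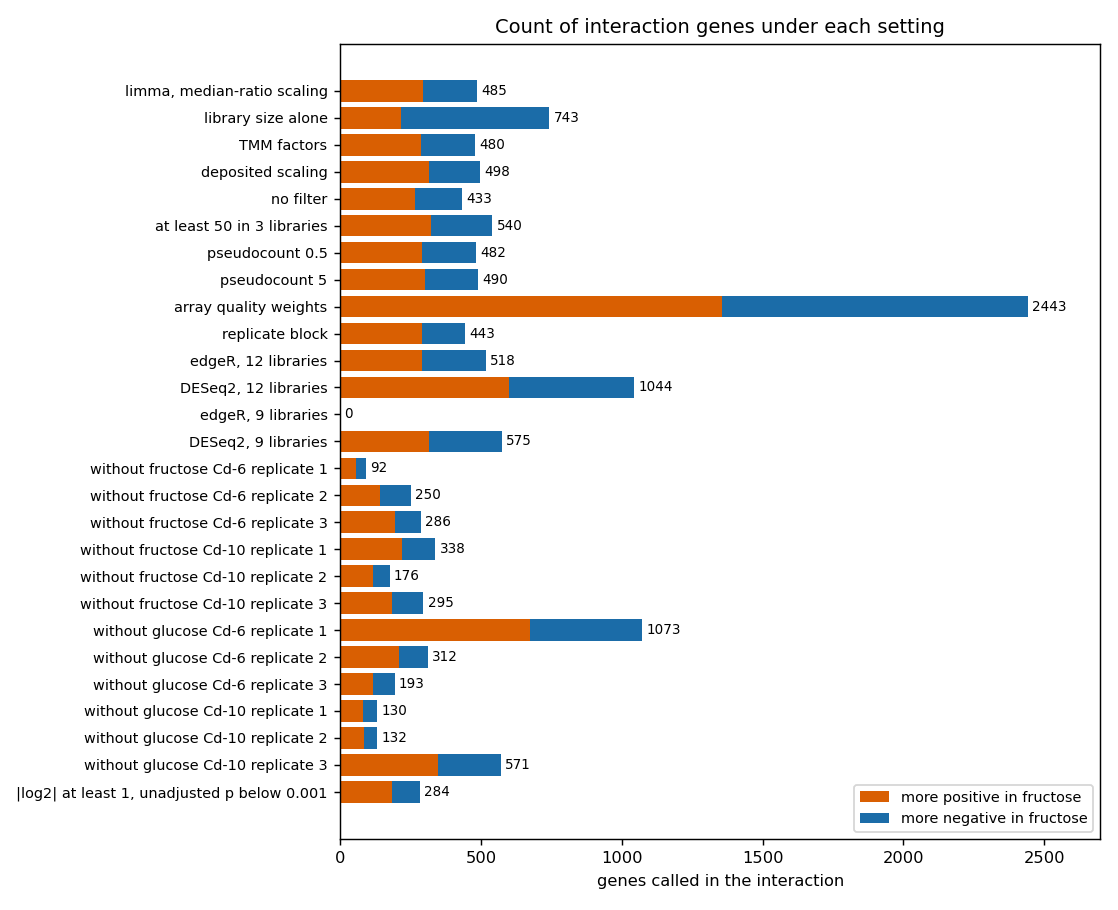
Number of genes called in the interaction under each setting, as bars starting at 0 and split into positive (left segment) and negative (right segment) genes. The limma fit with median-ratio scaling has 485; fits that leave out 1 library run between 92 and 1073, and the settings lie between 0 (edgeR, 9 libraries) and 2443 (quality weights).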

How the data were processed

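RNA-seq of 12 cultures was analysed, 3 in each of 4 groups defined by the labels (fructose or glucose, Cd-6 or Cd-10). Per the study's methods, reads were mapped with Hisat2 and counted with featureCounts; the labels name HISAT2 and Cufflinks, without versions. What the authors deposited is a normalized signal: each library's read counts over its own size factor, set separately by carbon source, with no length correction. Dividing by what 1 read is worth gave whole reads for 100% of the values in all 12 libraries (tolerance 0.01), and a stricter test accepted 9 of them. All value columns were matched to a sample (0 unmatched).

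Median-ratio factors over all 12 libraries gave the normalized read counts and removed the difference in scale between carbon sources. Genes with at least 10 in at least 3 libraries were fitted as log2(value + 1) with limma 3.58.1 in R 4.3.3 (group means, eBayes with trend), and p-values were adjusted by Benjamini-Hochberg over 10396 genes, with calls below 0.05. The planned edgeR test applied only to raw counts, so edgeR 4.0.16 and DESeq2 1.42.0 served as alternatives on recovered reads; the 9-library fits were added after seeing the data. CPM were taken from recovered reads. Fructose change, glucose change and interaction share libraries. The labels call the replicates separate cultures.

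Named genes were the 11 glutathione genes, the most positive, the most negative and each called member of the 10 pathway lists, and the 2 most positive and 2 most negative called genes outside them with a mean of at least 1 CPM. Lists were taken by name, since several pathway identifiers printed beside them do not belong to the names. Members and lists were chosen with earlier results of these data known. Deviations of same-numbered replicates of different groups correlated with r of -0.205 to 0.181 (18 pairs). Different-numbered pairs spanned a wider range (-0.217 to 0.232), so numbers were not used as a pairing in the main fit. Between fructose and glucose at Cd-6, however, same-numbered pairs had r of 0.107, 0.181 and 0.0801. Different-numbered pairs there had r of -0.124 to 0.0341. A fit with the replicate number as a block is given below. A reference gene table of another strain matched 0 gene IDs. The fit was tested on simulated data. Figures used Python 3.11.15 and matplotlib 3.10.9.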

Additional observations from a re-analysis of the deposited data

Results flagged for a closer look

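The change with age differed between fructose and glucose, by the interaction test of limma at an adjusted p below 0.05, for 485 genes. Of the named genes, the fructose change minus the glucose change was positive for A01313 (6.74), A00603 (3.07) and A01728 (1.18), and for the low-level gene of the second ID series (5.84). It was negative for A01090 (-6.38), A00533 (-3.57), A06328 (-3.51), A01410 (-3.23), A01254 (-1.84), A02702 (-1.42) and A06548 (-0.95). All values are log2 differences on the log2(value + 1) scale. Groups of 3 cultures are too small for a test of single outlying cultures.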

How the results depend on the processing

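With 3 cultures a group, the median standard error of the interaction was 0.33 (log2), which limits calls to larger differences. Against 485 interaction genes, library-size scaling gave 743, quality weights 2443, DESeq2 on 12 libraries 1044, edgeR on 9 libraries 0, and the study's limits (absolute log2 of at least 1, unadjusted p below 0.001) 284; leaving out 1 library gave 92 to 1073. TMM, deposited scaling, other filters and pseudocounts (0.5 and 5) gave 433 to 540. Fructose calls (2689) fell to 1454 in edgeR on 9 libraries and were 1734 to 3052 with 1 library left out, 1734 being without fructose Cd-6 replicate 1; glucose calls (3223) came to 5213 with quality weights. Library-size scaling gave 37.7% higher calls in fructose (50.4% in the main analysis) and 66.0% in glucose (47.7%). With the replicate block, 443 genes were called, 383 of them shared; A06548 had an adjusted p of 0.0505 there (limma). Different-numbered pairs had r of -0.217 to 0.232, a range that holds all same-numbered pairs. Between the sugars at Cd-6 the same-numbered pairs had the higher r. Named genes that were called kept their sign in each alternative run, but these runs reuse the libraries of the call. The cause of these shifts was not tested.

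Signs turned for 8 uncalled genes. A03741 was -0.27 with library size, -0.0056 with weights, -0.025 and -0.017 in edgeR and DESeq2 on 12 libraries, -0.24 and -0.22 on 9, and -0.26 to 0.26 with 1 library left out. A07600 was -0.11 with library size, -0.22 with weights and -0.17 to 0.43 left out. A04373 was -0.12 with library size, -0.53 and -0.52 in edgeR and DESeq2 on 9 libraries and -0.21 to 0.50 left out. A04379 was 0.55 and 0.57 on 9 libraries and -0.64 to 0.11 left out, and A09881 0.019 and 0.035 on 9. Left out, glucose-6-phosphate dehydrogenase was -0.23 to 0.078, A00358 -0.31 to 0.019 and A03397 -0.38 to 0.0032.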
